A study of Homo sapiens with 12 samples.

Results

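The 9 genes described here encode secreted and membrane-bound proteases that degrade the extracellular matrix, together with their inhibitors and a receptor: MMP1, MMP2, MMP7, MMP14, TIMP1, TIMP2, TIMP3, PLAU and PLAUR. They were listed by name for their function, with earlier results of these data known, and their probes were found by matching the RefSeq transcript of each array probe to a gene symbol. They are 9 of 20503 genes that could be named and are read by 10 probes of 50599, with 2 probes for PLAU and a single probe for each of the others. HA22T and PLC5 are established human hepatocellular carcinoma (HCC) cell lines. In both, cells received a non-targeting siRNA (siControl) or a pool of siRNAs against GALNT1 (siGALNT1), an enzyme that starts O-glycosylation, at 10 nM for 48 h before total RNA was extracted. There were 4 groups of 3 one-color arrays, HA22T siControl, HA22T siGALNT1, PLC5 siControl and PLC5 siGALNT1, in which all cells had received a transfection and the control was not an untreated culture. Each line stands for itself only, the siRNAs of the pool were not tested singly, and a change in RNA per cell cannot be told apart from a change in the mix of cells in these bulk samples. The labels do not say that the 3 arrays of a group came from separate cultures, so the p-values below measure the spread between these arrays, which may be technical.

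Matrix metalloproteases are zinc enzymes made as inactive precursors, and they cut collagens, gelatin and other matrix proteins once activated. Tissue inhibitors of metalloproteases (TIMPs) block them by binding the active site, and TIMP2 also takes part in the activation of MMP2 by the membrane-anchored MMP14. Urokinase, the product of PLAU, turns plasminogen into the protease plasmin at the cell surface, where it is held by its receptor PLAUR. In liver cancer these genes are followed for their part in the invasion of tumor cells through matrix.

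The cell lines differed in markers that bear on every comparison between them. Of 12 hepatocyte markers, 11 were lower in HA22T than in PLC5 (siControl, adjusted p below 0.05), where 11% of all counted probes were. APOC3 was counted through the 3 PLC5 siControl arrays alone. Of the 12 markers, 9 were well above background on at least 3 HA22T arrays and all 12 on at least 3 PLC5 arrays. The summed signal of these markers lay between 1.28 and 1.57 in HA22T siControl and between 7.11 and 7.79 in PLC5 siControl on the log2 scale relative to the array. The summed endothelial markers lay between -1.23 and -0.52 in HA22T and between 2.03 and 2.57 in PLC5, and of 3 counted genes PECAM1 alone passed with siControl (-5.41), while VWF (-0.07) and CDH5 (-0.32) did not. The summed fibroblast markers lay between -0.25 and 0.54 in HA22T and between -2.50 and -2.18 in PLC5, and of 3 counted genes LUM alone passed (6.12), while DCN (-0.36) and THY1 (-0.61) did not. The summed leukocyte markers lay between 4.61 and 6.17 over all 12 arrays. Most of that sum came from the PTPRC probe, with group means between 4.8 and 5.6. Each probe has its own response, so the sums are not comparable between lists. Of 5 counted genes CD14 passed as higher in HA22T (3.86, adjusted p = 0.00303), while CD68 (-1.19) and PTPRC (-0.06) did not pass. CD3E passed as well with siGALNT1 (1.30, adjusted p = 0.0291). The part of these marker differences in the results below was not tested. GALNT1 itself was lower on every siGALNT1 array than on every siControl array of the same line, but this knockdown did not pass the test on every probe. Its probe A_33_P3210218 changed by -5.10 in HA22T (adjusted p = 0.0708) and by -3.72 in PLC5 (adjusted p = 1), and A_23_P306105 by -4.75 (adjusted p = 0.0305) and -3.03 (adjusted p = 1). The first slide held all 6 HA22T arrays with replicate 1 of both PLC5 groups, and the second slide held the 4 remaining PLC5 arrays, so the members' differences between lines are also given with the slide as a block and within the first slide. That slide holds 1 PLC5 array per siRNA, so its fit takes the spread from the HA22T arrays and assumes that PLC5 varies alike. The slide term of the block rests on PLC5 alone, replicate 1 against replicates 2 and 3. Slide and replicate number therefore cannot be told apart there, and the block is not a clean correction for the slide.

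Promoters are shown for PLAU, PLAUR, TIMP1 and TIMP3, the members with the clearest differences between the lines for which RefSeq (GRCh38.p14) gave an entry. Each run is the 250 bases before an annotated start, 5′ to 3′ on the strand of the gene, with motif matches in capitals. The PLAU stretch is that of the second annotated start, chr10:73910882-73911131 on the plus strand, and the array does not tell which start is used.
PLAU: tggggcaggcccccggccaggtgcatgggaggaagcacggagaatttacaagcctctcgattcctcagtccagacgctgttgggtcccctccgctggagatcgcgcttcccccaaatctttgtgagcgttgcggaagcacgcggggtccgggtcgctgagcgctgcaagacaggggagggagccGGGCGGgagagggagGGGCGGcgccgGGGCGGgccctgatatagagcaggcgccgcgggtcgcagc
PLAUR, chr19:43670170-43670419 on the minus strand: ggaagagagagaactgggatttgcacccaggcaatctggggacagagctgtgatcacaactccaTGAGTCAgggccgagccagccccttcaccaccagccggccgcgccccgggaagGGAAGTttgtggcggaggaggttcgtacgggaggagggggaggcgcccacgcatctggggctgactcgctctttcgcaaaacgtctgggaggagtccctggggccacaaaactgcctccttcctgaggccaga
TIMP1, chrX:47582186-47582435 on the plus strand: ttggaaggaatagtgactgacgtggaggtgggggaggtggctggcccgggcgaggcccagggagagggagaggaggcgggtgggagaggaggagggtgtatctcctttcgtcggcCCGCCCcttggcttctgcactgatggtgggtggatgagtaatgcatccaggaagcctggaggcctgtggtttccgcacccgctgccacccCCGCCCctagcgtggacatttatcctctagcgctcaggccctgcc
TIMP3, chr22:32801455-32801704 on the plus strand: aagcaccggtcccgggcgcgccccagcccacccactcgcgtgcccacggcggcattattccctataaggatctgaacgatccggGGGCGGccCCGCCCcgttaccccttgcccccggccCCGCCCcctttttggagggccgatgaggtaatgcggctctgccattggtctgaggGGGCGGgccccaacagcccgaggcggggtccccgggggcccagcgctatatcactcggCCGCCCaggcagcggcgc
Capitals mark the letters GGGCGG (a GC box, bound by SP1), TGAGTCA (the AP-1 element) and GGAAGT (an ETS core), each searched on both strands, so that CCGCCC and ACTTCC mark the reverse strand. Matches of the 4 motifs searched, which included TATAAA, did not overlap.

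Among 35116 RefSeq promoters of the same length, GGGCGG was found in 42.6%, GGAAGT in 19.5%, TATAAA in 10.7% and TGAGTCA in 4.2%. Of the members, 6 of 9 had an entry, with 7 promoters in all. GGGCGG occurred in 4 of the 7, with 5 matches in TIMP3 and 3 in the second PLAU promoter, at 66, 51 and 40 bases before the start. TGAGTCA occurred in 2 of the 7, at 186 bases before the start of PLAUR and at 67 bases before that of MMP7. The MMP7 promoter also held TATAAA, at 30 bases before the start, and was the lowest in GC content, with 33.6% against a median of 58% over all promoters. The first PLAU promoter held none of the 4 motifs. These matches are a description of letters in a window and carry no measurement of binding.

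Urokinase differed most between the lines. The PLAU signal (probe A_23_P24104), as log2 relative to the 75th percentile of the array, was 2.55, 2.33 and 3.20 on the HA22T siControl arrays and -3.40, -3.05 and -3.07 on the PLC5 siControl arrays. With siGALNT1 it was 2.82, 2.85 and 3.39 in HA22T and -3.24, -3.39 and -2.99 in PLC5. All 6 HA22T arrays lay far above all 6 PLC5 arrays, while within each line the siControl and siGALNT1 arrays overlapped. The difference between HA22T and PLC5 with siControl was 5.87 on the log2 scale (standard error 0.29, 95% confidence interval 5.24 to 6.50, adjusted p = 2.22e-07), a 58.5-fold difference. On the siGALNT1 arrays it was 6.23 (adjusted p = 1.48e-07). The 2 differences use separate arrays but are not independent, as they come from 1 fit with a shared spread and the same lines and slides. The other PLAU probe (A_33_P3306146) read 2.79, 2.77 and 3.73 in HA22T siControl and -5.58, -5.97 and -6.29 in PLC5 siControl, where 1 of 3 arrays was well above background. All HA22T arrays were above all PLC5 arrays on this probe too, with fitted differences of 9.04 with siControl and 9.13 with siGALNT1, whose size rests on PLC5 values that were not well above background on 2 of 3 arrays with either siRNA. With siControl, only 0.67% of counted probes had a larger absolute difference than PLAU probe A_23_P24104.

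The urokinase receptor followed the same direction with a smaller difference. The PLAUR signal was 2.64, 2.53 and 2.66 in HA22T siControl, 2.54, 2.69 and 2.34 in HA22T siGALNT1, 0.79, 1.00 and 1.05 in PLC5 siControl, and 0.91, 1.06 and 1.00 in PLC5 siGALNT1. The lines did not overlap, and the arrays of a group lay close together. The difference between the lines was 1.67 with siControl (standard error 0.21, 95% confidence interval 1.21 to 2.13, adjusted p = 0.000159), or 3.18-fold, and 1.54 with siGALNT1 (adjusted p = 0.000307).

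Of the inhibitors, TIMP1 and TIMP2 were higher in HA22T and TIMP3 was lower. TIMP2, the inhibitor that also bridges MMP14 and the MMP2 precursor, read 5.37, 5.27 and 5.44 in HA22T siControl and 1.56, 1.95 and 1.52 in PLC5 siControl. With siGALNT1 it read 4.83, 5.24 and 5.50 in HA22T and 1.37, 2.48 and 1.2 in PLC5. The lines did not overlap, although PLC5 siGALNT1 replicate 2 stood about 1 log2 unit above its group. The difference was 3.68 with siControl (standard error 0.34, 95% confidence interval 2.93 to 4.43, adjusted p = 1.57e-05), or 12.9-fold, and 3.51 with siGALNT1 (adjusted p = 2.43e-05).

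TIMP1, a secreted inhibitor of most matrix metalloproteases, read 4.79, 3.82 and 4.31 in HA22T siControl and 1.70, 1.47 and 1.15 in PLC5 siControl. With siGALNT1 it read 3.87, 3.95 and 4.07 in HA22T and 1.67, 1.64 and 1.03 in PLC5. Every HA22T array was above every PLC5 array, and the widest spread was that of HA22T siControl (SD 0.48, n = 3). The difference was 2.87 with siControl (standard error 0.30, 95% confidence interval 2.20 to 3.53, adjusted p = 4.17e-05), or 7.29-fold, and 2.52 with siGALNT1 (adjusted p = 0.000117).

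TIMP3 differs from the other TIMPs in that it stays bound to the matrix and also inhibits ADAM proteases. It read -4.70, -4.02 and -4.33 in HA22T siControl, -4.13, -3.24 and -4.26 in HA22T siGALNT1, -1.21, -0.66 and -1.0 in PLC5 siControl, and -1.47, -0.26 and -1.25 in PLC5 siGALNT1. Here the HA22T arrays were all below the PLC5 arrays, the opposite order to TIMP1 and TIMP2. The difference was -3.39 with siControl (standard error 0.38, 95% confidence interval -4.23 to -2.55, adjusted p = 6.98e-05), so that the signal was 10.49-fold lower in HA22T, and -2.88 with siGALNT1 (adjusted p = 0.000243).

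The metalloproteases differed less between the lines. MMP14, the membrane-anchored activator of MMP2, read 0.35, 1.09 and 1.37 in HA22T siControl, -0.13, 0.82 and 0.71 in HA22T siGALNT1, -1.02, 0.15 and -0.04 in PLC5 siControl, and -1.22, -0.88 and -0.31 in PLC5 siGALNT1. Arrays of the lines did not overlap within either siRNA, but the gap was small against the spread, and replicate 1 was the lowest array in both lines and with both siRNAs. The difference was 1.24 with siControl (standard error 0.42, 95% confidence interval 0.32 to 2.16, adjusted p = 0.0558) and 1.27 with siGALNT1 (adjusted p = 0.0491), so that the call fell on either side of the threshold for nearly equal values. With the slide as a block the difference was 1.81 with siControl (adjusted p = 0.0148) and 1.84 with siGALNT1 (adjusted p = 0.0134). In PLC5 the block cannot tell the slide apart from the low replicate 1, which was low in HA22T too, where all arrays share a slide. Within the first slide it was 1.96 and 1.69, and neither passed. The siControl call was gained without HA22T siControl replicate 1 (1.53, adjusted p = 0.0389) or HA22T siGALNT1 replicate 1 (adjusted p = 0.0451), and the siGALNT1 call was lost without any 1 of 8 arrays, with adjusted p between 0.0548 and 0.147.

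MMP1, an interstitial collagenase, read -1.82, -2.19 and -2.37 in HA22T siControl, -1.67, -2.39 and -2.56 in HA22T siGALNT1, -3.29, -2.65 and -2.95 in PLC5 siControl, and -3.09, -3.15 and -2.65 in PLC5 siGALNT1. The HA22T arrays were above the PLC5 arrays with siControl, and with siGALNT1 the lowest HA22T array was close to the highest PLC5 array. The difference was 0.84 with siControl (95% confidence interval 0.16 to 1.51, adjusted p = 0.0764) and 0.76 with siGALNT1 (adjusted p = 0.101), and neither passed the threshold, although the siControl difference did in 4 alternatives, which were normexp (adjusted p = 0.0445), quantile normalization (0.017), median scaling (0.0328) and leaving out HA22T siGALNT1 replicate 1 (0.0484). The siGALNT1 difference passed in 2, which were quantile normalization (0.0229) and the percentile over spots that were not flagged (0.042).

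MMP2 and MMP7 were near background in both lines. MMP2, a gelatinase, was well above background on 2 of 3 arrays in HA22T siControl, at -2.84 and -3.01, with the third array at -4.28, and on 2 of 3 in PLC5 siControl, at -3.68 and -4.45, with the other array at -6.10. In HA22T siGALNT1 it read -3.07 and -4.19, with the spot of replicate 2 left out as non-uniform, and in PLC5 siGALNT1 it read -5.13, -6.16 and -3.63. The groups overlapped, and the difference with siControl was 1.37 (95% confidence interval -0.32 to 3.05, adjusted p = 0.25, two-sided exact permutation p = 0.2). MMP7, the small metalloprotease matrilysin of epithelial cells, was well above background on 2 of 3, 1 of 3, 1 of 3 and 0 of 3 arrays in HA22T siControl, HA22T siGALNT1, PLC5 siControl and PLC5 siGALNT1. It read -3.67, -5.69 and -6.69 in HA22T siControl and -6.42, -7.45 and -6.11 in PLC5 siControl, and these groups overlapped too (difference 1.31, 95% confidence interval -0.27 to 2.89, adjusted p = 0.238, two-sided exact permutation p = 0.3). With siGALNT1, MMP7 read -4.74, -6.31 and -6.72 in HA22T and -6.55, -6.92 and -6.42 in PLC5. In that comparison MMP2 and MMP7 were measured on too few arrays to be tested. The siControl intervals of MMP2 and MMP7 include both 0 and the difference seen for MMP14 (1.24), so they do not settle whether a difference of that size was present.

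**Figure D1:**
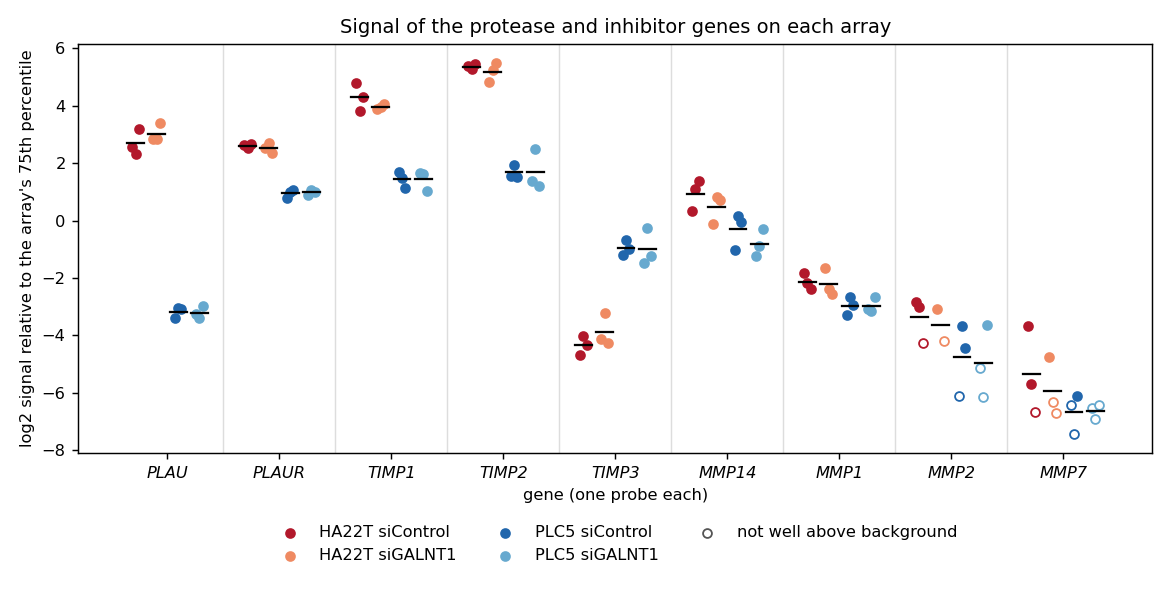
Log2 signal of each of the 9 genes relative to the 75th percentile of the array (vertical axis), 1 point per array, 3 per group, for the 4 groups of line and siRNA. Horizontal lines are group means and open points are arrays on which the probe was not well above background. PLAU, PLAUR, TIMP1 and TIMP2 sit higher in HA22T, TIMP3 sits higher in PLC5, and siControl and siGALNT1 points overlap within each line. Heights are comparable within a gene, not between genes, because each probe has its own response.

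Of the 9 genes counted in the siControl comparison of the lines, 5 passed the test, 4 of them higher and 1 lower in HA22T, where 22% of all 38011 counted probes passed (11% higher and 11% lower). On 6 of the 9 genes all HA22T siControl arrays were above all PLC5 siControl arrays, on 1 they were all below, and on 2 they overlapped. Of 34592 counted probes with a value on all 6 arrays, 23% were above, 19.3% below and 42.3% without overlap in either direction. A two-sided exact permutation test over 3 arrays against 3 cannot give a p below 0.1, and each of the 7 genes without overlap had that value. With siGALNT1, 6 of the 7 genes counted passed the test, 5 higher and 1 lower, against 22.9% of 36741 probes (9.79% higher and 13.1% lower). There too the HA22T arrays were all above the PLC5 arrays for 6 of the 9 genes and all below for 1, against 19.1% and 20.8% of 32668 probes with complete values and 39.9% in either direction. These shares are over probes, many of them without a gene name. With the mean over the probes of each named gene, 5380 of 17623 genes passed with siControl and 5412 of 17247 with siGALNT1, a larger share than over probes. With the slide as a block the siControl differences were 6.00 for PLAU, 3.90 for TIMP2, 2.62 for TIMP1, 1.79 for PLAUR and -3.03 for TIMP3. Within the first slide they were 6.10, 3.80, 2.60, 1.83 and -3.14. With siGALNT1 the same 5 differences were 6.36, 3.73, 2.28, 1.66 and -2.52 with the block and 6.26, 3.83, 2.30, 1.62 and -2.40 within the first slide. The siControl differences of MMP1, MMP2 and MMP7 were 1.07, 2.12 and 1.15 with the block and 1.17, 2.73 and 1.07 within the first slide, and none of these passed.

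**Figure D2:**
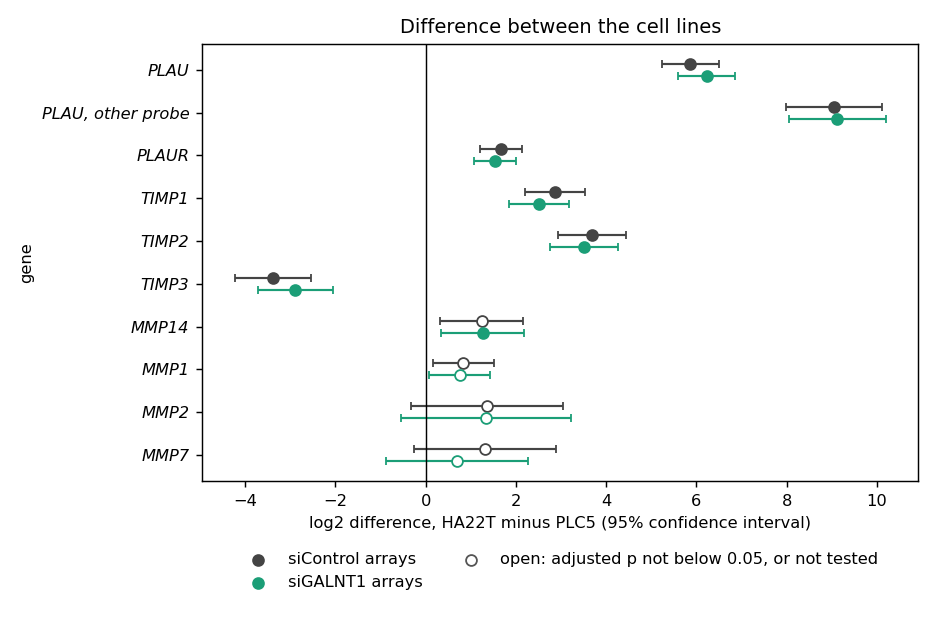
Log2 difference of HA22T minus PLC5 for each gene (horizontal axis), with the 95% confidence interval from limma, on siControl arrays (dark) and siGALNT1 arrays (green), 3 arrays against 3 except MMP2 with siGALNT1, with 2 against 3. Filled points had an adjusted p below 0.05. The intervals of the siControl and siGALNT1 differences overlap for every gene, with 5.87 and 6.23 for PLAU, -3.39 and -2.88 for TIMP3, and 1.31 and 0.70 for MMP7.

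The question of the study was what GALNT1 knockdown changes, and none of the 9 genes passed the test in either line. The study called genes at a fold above 1.5 and a p below 0.05, with no adjustment stated. The adjustment of the methods' t-test was added here. In HA22T, 0 of the 9 counted genes had an adjusted p below 0.05 in limma's test or the methods' t-test. With limma, 0 had an unadjusted p below 0.05. Of 36327 counted probes, 1 (0.00275%) passed with limma and 2.99% had an unadjusted limma p below 0.05. In PLC5, 0 of the 8 counted genes passed by either measure, where 0% of 38070 probes passed and 1.33% had an unadjusted p below 0.05. The siControl and siGALNT1 arrays overlapped for all 9 genes in both lines, where 8.83% of probes with complete values in HA22T and 4.11% in PLC5 did not overlap. The difference between the 2 knockdown changes passed for 0 of the 9 genes, where 0% of 39100 probes passed and 2.43% had an unadjusted p below 0.05. The members' differences between knockdown changes lay between -0.61 for MMP7 and 0.51 for TIMP3.

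The 95% confidence intervals below are for single probes and are not adjusted for the number of probes tested. Their limits are therefore not the smallest change that the test would have called. GALNT1 probe A_33_P3210218 changed by -3.72 in PLC5 (standard error 0.611) and did not pass. For PLAU the HA22T change was 0.33 (95% confidence interval -0.30 to 0.96). The siGALNT1 array was above the siControl array of the same number in 3 of 3 pairs on both probes. The pairs differed by 0.28, 0.52 and 0.19 on A_23_P24104 and by 0.48, 0.43 and 0.04 on A_33_P3306146. TIMP3 also lay higher in 3 of 3 HA22T pairs, with a change of 0.47 (95% confidence interval -0.37 to 1.32). MMP14 lay lower in 3 of 3 pairs in both lines, with changes of -0.47 in HA22T (95% confidence interval -1.39 to 0.45) and -0.50 in PLC5 (95% confidence interval -1.42 to 0.42). MMP7, near background, also lay lower in 3 of 3 HA22T pairs, with a change of -0.57 (95% confidence interval -2.15 to 1.00). The share of all probes with 3 of 3 pairs in the same direction was not counted. Pairs rest on the label numbers, and the PLC5 arrays did not meet the limit for pairing. None of these changes passed the test, and with the replicate number as a block in HA22T the adjusted p was 0.834 for PLAU, 0.825 for TIMP3 and 0.824 for MMP14. GALNT1, the targeted gene, did not pass in PLC5 either, and a member that did not pass may have changed within its interval. The intervals were narrowest for PLAUR, with changes of -0.09 in HA22T (95% confidence interval -0.55 to 0.37) and 0.04 in PLC5. They were widest for MMP2, from -2.14 to 1.63 in HA22T, where a change of 1 log2 unit in either direction lies inside the interval. For TIMP1 and TIMP2 the changes were -0.34 and -0.17 in HA22T, and for MMP1 -0.08. In PLC5 the counted genes besides MMP14 had changes between -0.23 for MMP2 and 0.04 for PLAUR.

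**Figure D3:**
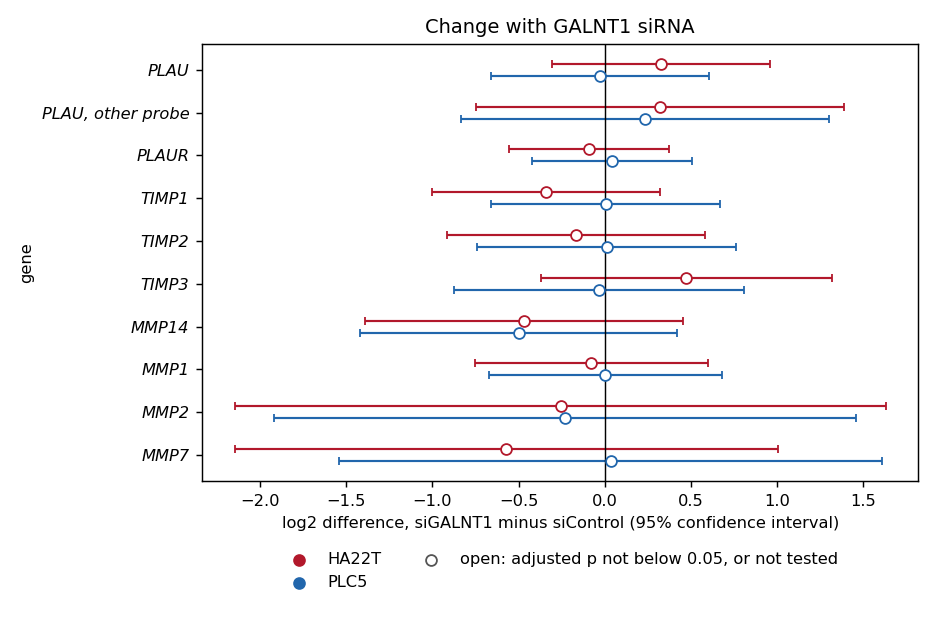
Log2 difference of siGALNT1 minus siControl for each gene (horizontal axis), with the 95% confidence interval from limma, in HA22T (red) and PLC5 (blue), 3 arrays against 3 except MMP2 in HA22T with 2 against 3. Every interval includes 0, and no gene had an adjusted p below 0.05.

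The urokinase pathway beyond PLAU and PLAUR differed between the lines in both directions. Of 19 other genes of the plasminogen system, 12 passed in the siControl comparison, 6 higher and 6 lower in HA22T. Of all counted probes, 22% passed, 11% higher and 11% lower. The median difference was 0.26 against 0.04 over all counted probes. SERPINB2, SERPINA5 and SERPINF2 were each well above background in only 1 line. Each was counted through the 3 siControl arrays of that line alone, so the filter favored the direction in which it passed. Higher in HA22T were PLAT, the tissue-type activator (2.18, adjusted p = 0.0106), and MRC2, a collagen uptake receptor found in complex with PLAUR (6.56, standard error 0.54, adjusted p = 6.84e-06). PLAT was well above background on 2 of 3 PLC5 arrays with either siRNA. Its siControl call was lost in 2 of 28 alternatives. With siGALNT1 it differed by 1.69 (adjusted p = 0.0367), and that call was lost in 8 of 28, 5 of them with a single array left out. SERPINB2, an inhibitor of urokinase, was not well above background on any PLC5 siControl array and was higher in HA22T (adjusted p = 0.000507). Against the lowest signal well above background on those PLC5 arrays, the fold was 22.3. Lower in HA22T were PLG, the plasminogen precursor made by hepatocytes (-4.78, standard error 0.50, adjusted p = 3.74e-05), VTN, or vitronectin, a plasma protein that binds PLAUR (-6.51, adjusted p = 7.31e-07), and HPN, the hepatocyte surface protease hepsin (-7.14, adjusted p = 3.63e-07). SPINT2, an inhibitor of hepsin-like proteases, was lower as well (-6.11, adjusted p = 4.85e-06). PLG and VTN are products of hepatocytes, whose marker list was also lower in HA22T by the values given above. A link between the lists was not tested. SERPINE2 (0.55, adjusted p = 0.377) did not pass. On the siGALNT1 arrays 11 of 18 counted genes of this list passed, 5 higher and 6 lower, where 22.9% of all counted probes passed. The differences were 7.34 for MRC2 and -5.0 for PLG. With the slide as a block the siControl differences were 3.08 for PLAT, 7.13 for MRC2, -4.65 for PLG, -6.95 for VTN and -6.92 for HPN, and within the first slide SERPINB2 did not pass (adjusted p = 0.0714). Over all the lists, 35 of 38 named siControl calls were kept with the block and 25 within the first slide, and 32 and 26 of 36 siGALNT1 calls.

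Other inhibitors and activators of metalloproteases also split. Of 8 counted genes, 5 passed with siControl, 2 higher and 3 lower, where 22% of all counted probes passed. The median difference was -0.32. RECK, a membrane-anchored inhibitor, was higher in HA22T (1.82, standard error 0.59, adjusted p = 0.0489), but its siGALNT1 difference of 1.35 did not pass (adjusted p = 0.128). TFPI2, a serine protease inhibitor of the matrix, was 1.12 higher (adjusted p = 0.0273). Both calls were lost when any 1 of several arrays was left out, with adjusted p up to 0.143 for RECK (without HA22T siControl replicate 2 or PLC5 siControl replicate 1) and up to 0.0924 for TFPI2 (without PLC5 siControl replicate 1). FURIN, the convertase that activates MMP14, was lower (-2.87, standard error 0.22, adjusted p = 3.26e-06). With the slide as a block RECK differed by 2.83, TFPI2 by 1.48 and FURIN by -2.88, and within the first slide RECK (adjusted p = 0.0662) and TFPI2 (adjusted p = 0.0541) did not pass. A2M, the plasma protease trap, and its relative PZP were not well above background on any HA22T siControl array. Both were lower there (adjusted p = 2.48e-08 for A2M and 9.45e-08 for PZP). Against the lowest signal well above background on those arrays, the folds were 1856 for A2M and 64.9 for PZP. Both were counted through the 3 PLC5 siControl arrays alone, so the filter favored the direction in which they passed. TIMP4 differed by 0.71 with siControl (adjusted p = 0.313) and by 1.70 with siGALNT1 (adjusted p = 0.0185, and 0.0643 without HA22T siGALNT1 replicate 3 or 0.0544 without HA22T siGALNT1 replicate 2).

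The other matrix metalloproteases showed no gene that passed. Of 19 with a probe, 10 were counted with siControl and 11 with siGALNT1, and 0 passed in either with limma, with 2 and 5 of them at an unadjusted p below 0.05. The 2 were MMP15 and MMP17, membrane-anchored metalloproteases, which were among the 5 as well, with MMP11, MMP19 and MMP28 (these genes were named after their values were seen). MMP9, the other gelatinase, differed by -0.40 with siControl (adjusted p = 0.625) and by 0.31 with siGALNT1 (adjusted p = 0.696). Of 11 counted ADAM and ADAMTS genes, 5 passed with siControl, 3 higher and 2 lower. Of all counted probes, 22% passed with siControl and 22.9% with siGALNT1. Over named genes, 5380 of 17623 and 5412 of 17247 passed. The counts of the ADAM list and of the cathepsins below were not tested against these shares. ADAMTS1, which cuts proteoglycans, was higher in HA22T (3.79, adjusted p = 7.06e-06), and so were ADAM15 (1.43, adjusted p = 0.0028) and ADAM17, the main sheddase of EGF receptor ligands (1.09, adjusted p = 0.009). ADAM19 was lower (-3.38, adjusted p = 9.2e-06), and so was ADAMTS2, which trims procollagen. Against the lowest signal well above background on the HA22T siControl arrays, the ADAMTS2 fold was 3.91. ADAMTS2 was counted through the 3 PLC5 siControl arrays alone, so the filter favored the direction in which it passed. With siGALNT1, 4 of 11 passed, 2 higher and 2 lower, and ADAM17 did not (0.52, adjusted p = 0.168). Of 14 counted cathepsins and cystatins, 5 passed with siControl, beside the 22% of probes and 5380 of 17623 named genes given above. The lysosomal proteases CTSB (1.42), CTSD (1.49) and CTSL (1.34) were higher. CTSH (-1.82, adjusted p = 0.000966) and CSTA, a cystatin (-1.12), were lower. The CSTA call was lost without HA22T siControl replicate 3 (adjusted p = 0.0576) or PLC5 siControl replicate 2 (0.0648), and the CTSL call without the latter (0.0501). With siGALNT1, 4 of the 14 passed, with CTSD higher (1.22, adjusted p = 0.0282) and CTSH (-1.77), CTSK (-1.44, adjusted p = 0.0178) and CTSV (-1.75, adjusted p = 0.019) lower. There CTSB (0.73, adjusted p = 0.115), CTSL (0.78, adjusted p = 0.12) and CSTA (-0.83, adjusted p = 0.0551) did not pass. Of 28 alternatives, 9 lost the siGALNT1 call of CTSD, 9 that of CTSK, 5 that of CTSV and 1 that of CTSH. CTSK was well above background on 1 of 3 HA22T siGALNT1 arrays, and with siControl it differed by -0.29 (adjusted p = 0.646). Within the first slide ADAM15, ADAM17, CTSB, CTSD, CTSL and CSTA did not pass, and with the slide as a block CTSD (adjusted p = 0.084) and CSTA (adjusted p = 0.108) did not.

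Among transcription factors of the AP-1 and ETS families, for which PLAU, PLAUR and several metalloprotease genes are textbook targets, 6 of 12 passed with siControl. Of these, 4 were higher and 2 lower, and the median difference of the list was 0.51. Of all counted probes, 22% passed with siControl and 22.9% with siGALNT1. FOSL1, an AP-1 subunit, differed by 5.56 (standard error 0.57, adjusted p = 3.3e-05) and ETS1 by 3.44 (adjusted p = 4.77e-05). ETV5 (1.89, adjusted p = 0.000116) and FOSL2 (1.32, adjusted p = 0.00416) were also higher in HA22T, whereas ETV4 (-2.01, adjusted p = 0.00196) and ETS2 (-1.12, adjusted p = 0.0246) were lower. The ETS2 call was lost with the slide as a block (adjusted p = 0.162) and without HA22T siControl replicate 3 (0.0956), PLC5 siControl replicate 2 (0.0981) or PLC5 siControl replicate 3 (0.0702), and FOSL2 did not pass within the first slide (adjusted p = 0.0677). On the siGALNT1 arrays 5 of the 12 passed, with 5.78 for FOSL1, 3.33 for ETS1, 1.65 for ETV5, -1.74 for ETV4 and -1.40 for ETS2, and FOSL2 did not (0.70, adjusted p = 0.0827). With the slide as a block FOSL1 differed by 5.60 and ETS1 by 3.80 with siControl. After GALNT1 knockdown 0 genes passed in each of these lists in both lines, with limma and with the methods' t-test under the same adjustment. At an unadjusted limma p below 0.05 there were MMP11 (0.97) and CTSB (-0.72) in HA22T and none (0) in PLC5.

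**Figure D4:**
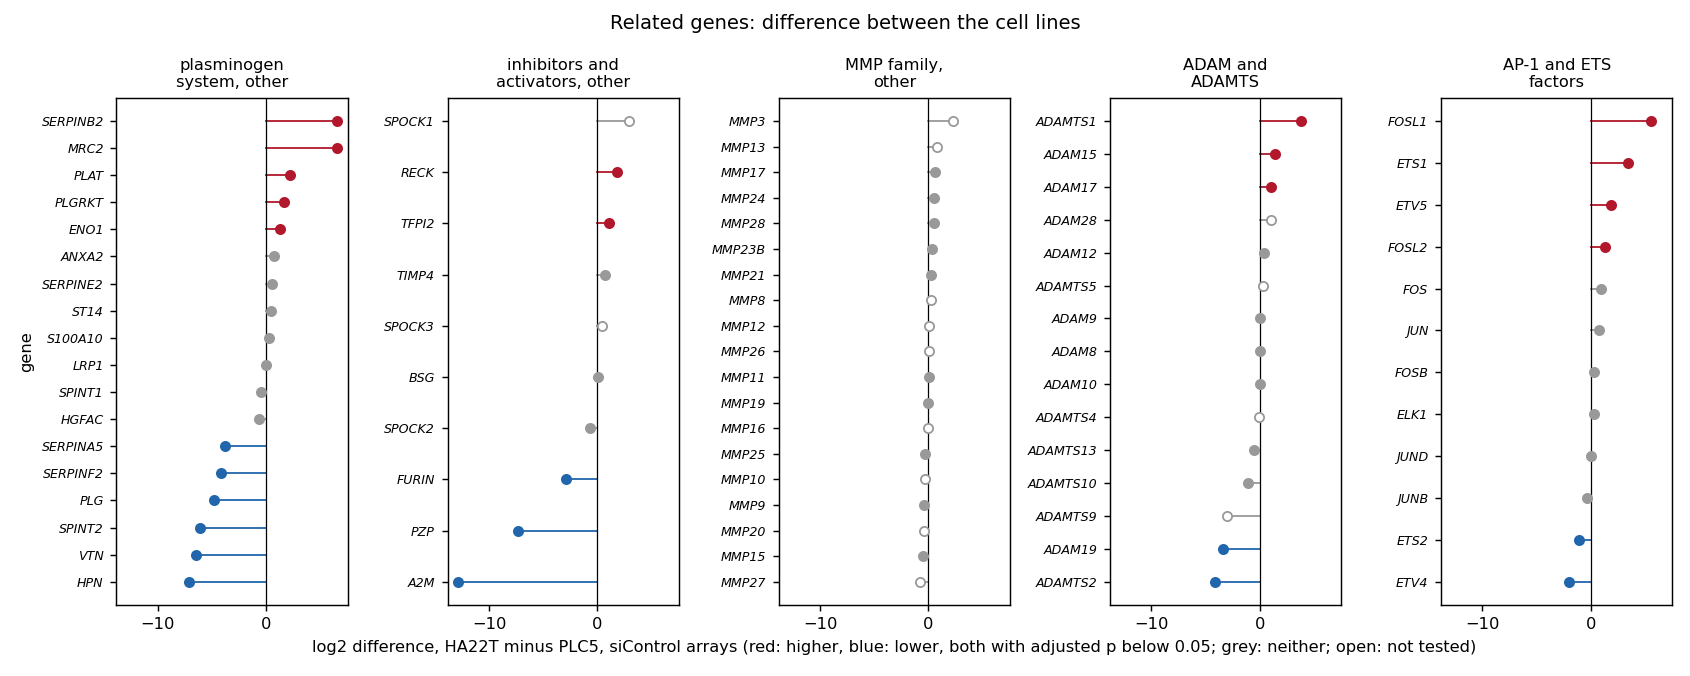
Log2 difference of HA22T minus PLC5 on siControl arrays (horizontal axis, the same scale in each panel) for 5 lists of related genes, 1 point per gene. Red and blue points passed the test as higher and lower in HA22T, grey points did not and open points were not tested. For SERPINB2, SERPINA5, SERPINF2, A2M, PZP and ADAMTS2 a line had no array well above background, so their points are fitted values. Folds against the lowest signal well above background are in the text where given. The plasminogen system spreads to both sides, with 5 of the drawn genes red and 6 blue, and no gene of the MMP family is colored.

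Genes with the signal pattern most like that of each member were named by Pearson's correlation over the 12 arrays. For PLAU they were TLR4 (0.998), FSTL1 (0.996) and RARRES2 (0.996) of 14983 genes compared, for PLAUR TMTC1 (0.995), FBXO32 (0.994) and GAS6 (0.993), and for TIMP2 TRERF1 (0.996), LIMA1 (0.996) and GALC (0.995). For TIMP1 they were CPSF4 (0.994), BID (0.994) and GAD1 (0.993), and for TIMP3 EEF1A2 (0.994), TFAP2C (0.991) and INHBE (0.991). These points fall into the 2 cell lines and share their slides, so the values describe mainly the step between the lines. The likeness was lower for MMP14, with CTIF (0.969), SEMA4C (0.95) and TSEN15 (0.943), for MMP1, with TRPM5 (0.976), TTLL10 (0.971) and OR5F1 (0.966), for MMP7, with RANBP2 (0.955), CLSPN (0.941) and DDX21 (0.932), and for MMP2 over 11 arrays, with KRTAP10-8 (0.961), PRMT8 (0.931) and OR6S1 (0.928).

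Between members the same step was visible. PLAU and PLAUR correlated at 0.985 over the 12 arrays and at -0.01 once the group means were removed, and TIMP1 and TIMP3 at -0.96 over the 12 arrays and at -0.20 within groups. MMP1 and MMP2 differed from these pairs, with 0.88 over the arrays and 0.84 within groups. MMP2 lay near background and had 11 arrays with a value, and these values are descriptions over arrays that share a line and a slide.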

How the data were processed

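Total RNA of the 12 samples was labeled as cDNA by the authors and hybridized to Agilent SurePrint G3 Human one-color arrays. The intensity values deposited by the authors come from Agilent Feature Extraction 10.5.1.1 (named in the submitters' processing notes), which had subtracted the local background from each spot. A table of log2 values that the authors deposited beside them, scaled so that the 75th percentile of each array is 0, was used here only as an alternative.

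Control spots and spots flagged as non-uniform were left out, the log2 intensity was set relative to the 75th percentile over all non-control spots, and spots of a probe were averaged. Depth on an array is signal over background: 62.5% to 83.2% of spots were well above background, none (0) was saturated, and replicates correlated at 0.963 to 0.986. Of 50599 probes, 28174 were named through RefSeq transcripts of GRCh38.p14. Coordinates in the text are those of the RefSeq promoters and of no deposited file.

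The limma package (version 3.58.1, in R 4.3.3) was used to fit 1 linear model with the 4 groups as its terms and no covariate, followed by eBayes. A probe was counted where at least 3 of the 6 arrays compared were well above background. It could meet this through the 3 arrays of 1 group alone, which favors a difference in that direction. Benjamini-Hochberg adjustment ran over all counted probes, with 0.05 as the threshold. Where a gene had 2 or more probes, the brightest with a value in every group stands for it. For a fold against a group with no array well above background, each array was set to its lowest signal well above background of any probe. The probe's own signal was used where it was higher. Such a fold depends on the processing and is not a strict lower limit. Over the alternatives the fitted siControl differences reached -9.77 for A2M, -4.97 for PZP, 3.89 for SERPINB2 and -1.66 for ADAMTS2 at their smallest. Exact permutation tests were two-sided. The procedure was tested on simulated data. Marker sums add the linear signal of the brightest probe of each gene of a list.

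The 9 genes and the lists were chosen with earlier results of these data known. All probes of the 9 genes are named, with genes of the lists that passed the test (at most 6 per list, largest first, not all of which are printed), SERPINE2, PLAT, RECK, TIMP4 and MMP9 whatever their value, and the 3 genes most like each member among genes well above background on at least 6 of 12 arrays. One gene that this rule takes is counted with its list but not reported here by name or drawn.

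Replicate numbers are given by the labels with no statement of what they share. Array deviations from the group means, paired by number between siControl and siGALNT1, correlated at 0.496, 0.237 and 0.334 in HA22T, which met the limit of 0.1 for pairing, and at 0.579, 0.0256 and 0.19 in PLC5, which did not. Alternatives were normexp background correction (offset 50, on the median spot brightness), quantile and median scaling, the deposited table, other filters, the slide or replicate number as a block, arrays of the first slide only, only the groups compared, other priors for the spread, the methods' t-test, the mean over probes, and each array left out in turn.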

Additional observations from a re-analysis of the deposited data

How the results depend on the processing

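In the comparison of the lines with siControl, PLAU (5.53 to 7.46), TIMP2 (3.59 to 3.90), TIMP1 (2.60 to 3.11), PLAUR (1.55 to 1.83) and TIMP3 (-3.56 to -2.56) kept their direction and an adjusted p below 0.05 in all 28 alternatives. The count of the 9 genes that passed rose from 5 to 8 with normexp, with MMP14, MMP1 (adjusted p = 0.0445) and MMP2 (0.0358) added, and lay between 5 and 7 when single arrays were left out. With siGALNT1 that range was 5 to 6, and in both knockdowns it was 0 to 0. MMP14 passed in 12 of 28 alternatives with siControl (0.88 to 1.96) and lost its siGALNT1 call in 12 of 28. Besides single arrays, these were no filter on dim probes (adjusted p = 0.0605), the first slide (0.121), only the compared groups (0.0774) and the methods' t-test (0.138). Of named genes of the other lists, 12 of 38 kept their call in every alternative with siControl and 8 of 36 with siGALNT1, and none (0) of these calls reversed. Of the other metalloproteases, 0 to 1 passed with siControl and 0 to 2 with siGALNT1.

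With the replicate number as a block, the paired HA22T knockdown values were 0.33 for PLAU (adjusted p = 0.834), 0.47 for TIMP3 (0.825), -0.47 for MMP14 (0.824) and -0.071 for MMP2, and no member passed. A block of shared numbers, added after seeing the data, gave the line difference of MMP14 an adjusted p of 0.00441 with siControl and 0.00408 with siGALNT1 and changed no other member's call.

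Values near 0 changed sign. For HA22T knockdown, PLAUR was 0.034 with normexp and 0.034 with the percentile over unflagged spots (an alternative chosen after seeing the data), MMP1 was 0.045 with the latter, and MMP2 was 0.39 with the deposited table and 0.41 with non-uniform spots kept. For PLC5 knockdown, normexp gave 0.045 for MMP2, -0.013 for TIMP2, 0.037 for PLAU, -0.0089 for PLAUR and -0.019 for the other probe (PLAU A_33_P3306146). Quantile normalization gave 0.0020 and -0.00497 for the PLAU probes, and the mean over probes 0.10 for PLAU. The first slide, with 1 array against 1, gave 0.98 for MMP2, -0.12 for MMP7, -0.033 for TIMP1, -0.19 for TIMP2, 0.16 for PLAU and -1.09 for its other probe. Between lines, MMP7 was -0.14 with siGALNT1 under quantile normalization, CTSK 0.12 with siControl under normexp, and MMP9 with siControl 0.14 with the slide block and 0.048 within the first slide.

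Leaving out single arrays gave HA22T knockdown ranges of -0.35 to 0.099 for MMP1, -0.81 to 0.30 for MMP2, -1.24 to 0.27 for MMP7, -0.17 to 0.0013 for PLAUR and -0.32 to 0.015 for TIMP2. In PLC5 they were -0.16 to 0.16 for MMP1, -0.91 to 0.37 for MMP2, -0.36 to 0.31 for MMP7, -0.14 to 0.061 for PLAU, -0.35 to 0.71 for its other probe, -0.035 to 0.097 for PLAUR, -0.14 to 0.21 for TIMP1, -0.39 to 0.25 for TIMP2 and -0.40 to 0.21 for TIMP3. Line differences ranged from -0.65 to 0.055 for MMP9 with siControl, from -0.0081 to 0.83 for MMP9 with siGALNT1 and from -0.023 to 0.49 for SERPINE2 with siGALNT1.

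Over all counted probes, calls with siControl fell from 8368 to 3106 within the first slide, and with siGALNT1 from 8407 to 3136 there, 5288 with only the compared groups and 3967 with the methods' t-test. Of the siGALNT1 calls, 42.8% were higher in HA22T, 54.8% with quantile normalization and 59.2% with the percentile over unflagged spots, and the median difference moved from 0.10 to 0.22 and 0.33. HA22T knockdown calls ranged from 0 to 3 and PLC5 calls from 0 to 2. The cause of these shifts was not tested. Dim signal limits MMP2, MMP7 and the other PLAU probe in PLC5.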
